A study of Mus musculus with 6 samples.

Results

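The receptors and ligands of the platelet-derived growth factor (PDGF) and fibroblast growth factor (FGF) families described here are 10 mouse genes. They are the PDGF ligand genes Pdgfa and Pdgfb, the PDGF receptors Pdgfra and Pdgfrb, the FGF ligands Fgf2, Fgf7 and Fgf21, and the FGF receptors Fgfr1, Fgfr2 and Fgfr4. Every probe set that the platform annotation assigns to 1 of these genes alone was kept, which gave 24 of the 45033 probe sets analysed, for 10 of 18192 genes. The cells were C2C12, a mouse myoblast line that fuses into contractile myotubes when serum is withdrawn, after 28 hours in Dulbecco's medium with 2% horse serum. By their titles, 3 arrays come from control cells transfected with a hairpin (shRNA) directed at GFP and 3 from knockdown cells transfected with a hairpin directed at PRDM2, a histone H3 methyltransferase of the PR domain family. Arrays within a group are labelled as biological replicates, and the labels do not say whether the transfected cells were clones or pools. The comparison asks which genes respond during differentiation when PRDM2 is targeted.

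PDGF chains form dimers that bind and activate the alpha and beta PDGF receptors, which are tyrosine kinases. The alpha receptor accepts the A, B and C chains, while the beta receptor accepts mainly B and D, and both feed the Ras, PI3 kinase and phospholipase C routes. FGFs act through their own family of receptor tyrosine kinases with heparan sulphate or a klotho protein as co-receptor. In skeletal muscle both families are known as mitogens of myoblasts, FGF2 delays differentiation in culture, and Pdgfra and Pdgfrb are used to mark mesenchymal progenitors and pericytes.

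The median intensity per array was 10.7 to 11.4 units, and precision is limited by how few arrays there are, 3 in each group. Prdm2 itself was not lower on the knockdown arrays, since its 3 probe sets had log2 fold changes of 0.07 to 0.15 and adjusted p-values of 1 in limma, so the directions below rest on the labels. The arrays labelled control replicate 2 and knockdown replicate 2 were close to each other, and each stood apart from the other arrays of its group. Over the 11259 brightest probe sets, the median absolute deviation of the log2 difference was 0.0758 between these 2 arrays, and 0.199 for the next closest pair, control replicate 3 and knockdown replicate 3. Control replicate 2 lay at 0.377 and 0.369 from the other controls, which were 0.216 apart, and knockdown replicate 2 at 0.296 and 0.269 from the other knockdown arrays, which were 0.205 apart. Whether the arrays numbered 2 hold separate RNA samples of the groups they are labelled with was not tested, so the 3 samples per group rest on the labels. The same held for the growth factor genes, where 16 of the 17 probe sets that reached 16 units on any array differed by under 0.2 log2 units between control replicate 2 and knockdown replicate 2. The exception was Fgfr2, at 0.38. Fold changes are therefore given with all 6 arrays and also without control replicate 2, an exclusion picked for its position in these data, which makes its p-values optimistic. Leaving out knockdown replicate 2 in its place gave 0 called probe sets of 45033 (limma, 2045 at an unadjusted p under 0.05), against 237 without control replicate 2. All 11 skeletal muscle markers examined, among them Myod1 and Myog, reached 16 units.

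Across the growth factor genes, Pdgfa, Pdgfb and Pdgfrb were lower on control replicates 1 and 3 than on the other 4 arrays. Fgf21 was lowest on knockdown replicate 1, and Fgfr1 was nearly level. No member probe set passed the threshold with all 6 arrays. The count was 0 of 24 at an adjusted p of 0.05 (limma), against 0% of all probe sets, and 1 of 24 at an unadjusted p under 0.05, against 2.94%. Without control replicate 2 the counts were 0 of 24, against 0.526%, and 8 of 24, against 10.2%. Of the 17 probe sets that reached 16 units, 9 spanned at least 1 log2 unit over the 6 arrays, whereas 8.96% of all probe sets that reached 16 units did. The members were chosen with earlier results of these data known, and some genes enter the 9 more than once. This contrast is therefore no test of the family. The median log2 fold change over these 17 was 0.02, and over all probe sets 0.00.

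**Figure D1:**
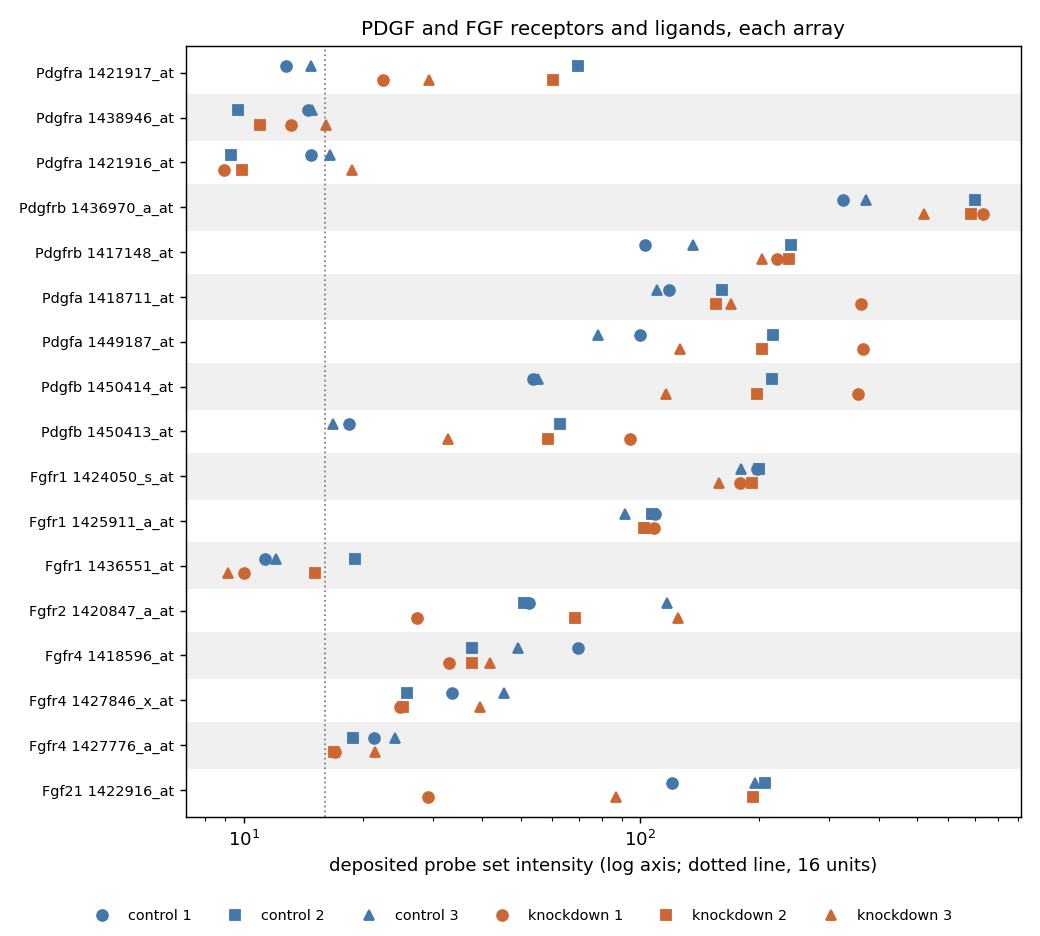
Deposited intensity of the 17 member probe sets that reached 16 units, on a log axis, with 1 point per array (blue, control; orange, knockdown; circle, square and triangle for replicates 1, 2 and 3). For both probe sets of Pdgfb, Pdgfrb and the second one of Pdgfa, the blue square of control replicate 2 lies among or beside the orange points, while the blue circle and triangle lie to their left.

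Pdgfb, which encodes the B chain that both receptors bind, varied most among the PDGF genes. Probe set 1450414_at read 53.7, 215 and 55.2 units on the control arrays (replicates 1, 2 and 3 in turn, as in all values below) and 355, 198 and 116 on the knockdown arrays. Control replicates 1 and 3 were the lowest arrays, while control replicate 2 lay above knockdown replicates 2 and 3, so the groups overlapped. On the log2 scale the means were 6.71 ± 0.96 in control and 7.78 ± 0.64 in knockdown (SD, n = 3 each). The log2 fold change came to 1.07 (SE 0.52, 95% interval -0.18 to 2.31, adjusted p = 1 in limma). Without control replicate 2 it was 1.62 (SE 0.34, interval 0.78 to 2.46, adjusted p = 0.15). The second probe set, 1450413_at, read 18.5, 62.9 and 16.8 units in control and 94.4, 58.5 and 32.8 in knockdown. Control replicates 1 and 3 were again the lowest arrays, with log2 fold changes of 0.74 (SE 0.39) with all 6 arrays and 1.13 (SE 0.29) without control replicate 2.

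Pdgfa, which encodes the A chain, a ligand of the alpha receptor, was likewise lowest on control replicates 1 and 3. Probe set 1418711_at read 118, 161 and 110 units in control and 361, 155 and 170 in knockdown. Knockdown replicate 1 was far above all other arrays. After quantile normalization this was the only member probe set whose groups did not overlap with all 6 arrays, by 155.1 against 154.6 units, and in the deposited scaling they overlapped. One of 24 with knockdown above and 0 of 24 with knockdown below compare with 3.18% and 4.06% of all probe sets. The log2 fold change came to 0.68 (SE 0.27, interval 0.03 to 1.33, adjusted p = 1), and 0.80 (SE 0.30, adjusted p = 0.42) without control replicate 2. Probe set 1449187_at read 100.005, 216 and 78.5 units in control and 366, 203 and 126 in knockdown, with log2 fold changes of 0.75 (SE 0.40) and, without control replicate 2, 1.12 (SE 0.33). Without knockdown replicate 1 the fold changes of the Pdgfa probe sets were 0.37 and 0.43, and that of Pdgfb 1450414_at was 0.74.

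Pdgfrb, the beta receptor, had 2 probe sets with matching patterns. Probe set 1436970_a_at read 326, 699 and 371 units in control and 732, 685 and 520 in knockdown. The knockdown arrays and control replicate 2 thus formed a group above control replicates 1 and 3. The log2 means were 8.83 ± 0.56 in control and 9.37 ± 0.15 in knockdown (SD, n = 3 each), and the fold change was 0.54 (SE 0.27, interval -0.10 to 1.18, adjusted p = 1). Without control replicate 2 it was 0.85 (SE 0.14, interval 0.52 to 1.18), with an adjusted p of 0.0761 over 45033 probe sets and of 0.0469 when 1 probe set per gene was tested, a fit in which 1.59% of genes were called. Over its 19 alternatives the adjusted p ran from 0.0469 to 1. Probe set 1417148_at read 103, 241 and 136 units in control and 222, 237 and 203 in knockdown. Its fold changes were 0.52 (SE 0.26) and, without control replicate 2, 0.82 (SE 0.15, adjusted p = 0.10). Without control replicate 1, the array with the lowest values, they were 0.30 and 0.26.

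Pdgfra, the alpha receptor, was close to the floor, and its 3 probe sets disagreed. Probe set 1421917_at read 12.8, 69.7 and 14.8 units in control and 22.5, 60.3 and 29.3 in knockdown. Its highest arrays were those numbered 2 in either group. The log2 fold change came to 0.29 (SE 0.44), 0.78 (SE 0.27, adjusted p = 0.38) without control replicate 2, and 0.02 without knockdown replicate 2. The other two probe sets, 1438946_at and 1421916_at, read between 8.94 and 18.8 units and were lowest or nearly lowest on the arrays numbered 2. Their fold changes were 0.02 (SE 0.10) and -0.05 (SE 0.16), and those without control replicate 2 were -0.06 and -0.16.

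Without control replicate 2, the knockdown arrays lay above control replicates 1 and 3 in 7 of 24 member probe sets, against 12.9% of all probe sets, and below them in 2 of 24, against 13.5%. The 7 were both probe sets of Pdgfa, Pdgfb and Pdgfrb and 1 of Pdgfra. The 2 belonged to Fgfr4, and 1 of them, 1427777_x_at, stayed under 16 units on every array, where a difference could not be measured. These counts share control replicates 1 and 3 and the same RNA samples, so they are not separate observations. With knockdown replicate 2 left out in place of control replicate 2, the log2 fold changes of Pdgfb 1450414_at, Pdgfa 1418711_at and Pdgfrb 1436970_a_at were 1.08 (SE 0.64), 0.89 (SE 0.27) and 0.49 (SE 0.33), none of them called.

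**Figure D2:**
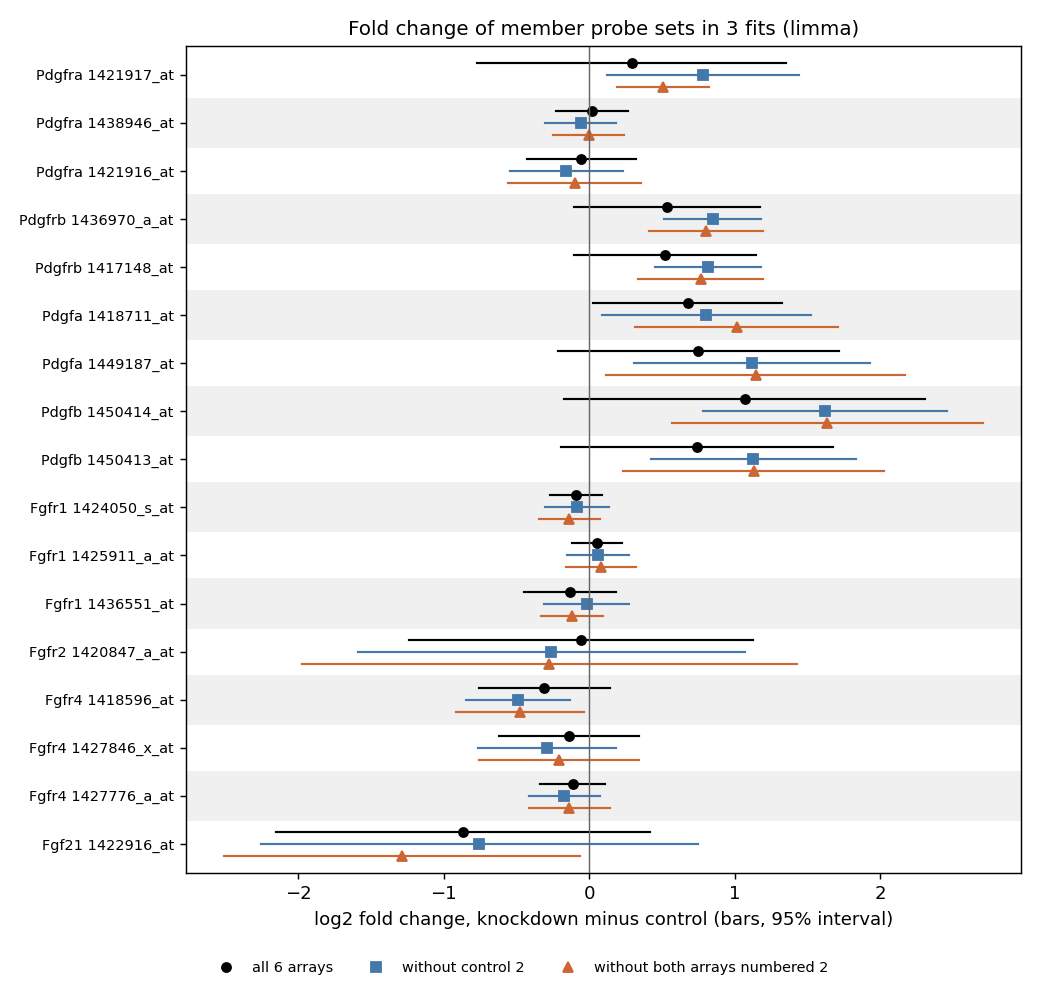
Log2 fold change of the 17 member probe sets, knockdown minus control, with 95% intervals from limma, for all 6 arrays (black circles), without control replicate 2 (blue squares) and without both arrays numbered 2 (orange triangles). The Pdgfb, Pdgfa and Pdgfrb estimates lie right of 0 in each fit, the Fgf21 and Fgfr4 estimates lie left of it, and the Fgfr1 estimates lie within 0.15 of 0.

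Fgf21 encodes a circulating FGF that needs beta-klotho as co-receptor and is released by muscle under metabolic stress. Its log2 fold change had the opposite sign to those of Pdgfa and Pdgfb, although its order of arrays was not the reverse of theirs. Its probe set 1422916_at read 121, 206 and 195 units in control and 29.2, 193 and 87.2 in knockdown. Knockdown replicates 1 and 3 were the lowest arrays, but knockdown replicate 2 lay within the control range. The log2 means were 7.53 ± 0.41 in control and 6.66 ± 1.12 in knockdown (SD, n = 3 each). The fold change was -0.87 (SE 0.54, interval -2.16 to 0.42, adjusted p = 1), and -0.76 (SE 0.62, adjusted p = 0.82) without control replicate 2. Without knockdown replicate 1 it was -0.28, and without knockdown replicate 2 it was -1.40. With both arrays numbered 2 left out and the replicate number as a block, Fgf21 fell by 1.29 log2 units (SE 0.15; limma, adjusted p = 0.024). That was 1 of 24 member probe sets called, against 1.6% of all probe sets, in a fit of 2 arrays against 2. The arrays left out and the pairing were both taken from these data, which makes the p-values of this fit optimistic. Without the block the same 4 arrays gave an adjusted p of 0.48, with 0 of 24 called against 0.127%, and over all 19 alternatives the adjusted p ran from 0.024 to 1.

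Fgf2 and Fgf7, the other two ligands, gave no value above 16 units. The single Fgf2 probe set, 1449826_a_at, read between 2.36 and 4.76 units. The Fgf7 probe sets read between 5.08 and 11.8 and between 2.21 and 8.49 units. At these levels a difference could not be measured, and no fold change is given.

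Of the members' promoters, those of Pdgfa and Fgf21 are shown, as the 2 widest-ranging ligand genes with an entry in the RefSeq promoter table, where 7 of the 10 genes have one. Each run is the 250 bases before a transcription start in GRCm38.p6, 5′ to 3′ on the gene's strand. Pdgfa is on the minus strand at chr5:138994945-138995194, before the more upstream of its 2 listed starts, and Fgf21 on the minus strand at chr7:45615491-45615740. Capitals mark matches, on either strand, to the GC box GGGCGG, the E-box CANNTG, the TATA box TATAAA and the EGR motif GCGNGGGCG, and matches can overlap.
Pdgfa: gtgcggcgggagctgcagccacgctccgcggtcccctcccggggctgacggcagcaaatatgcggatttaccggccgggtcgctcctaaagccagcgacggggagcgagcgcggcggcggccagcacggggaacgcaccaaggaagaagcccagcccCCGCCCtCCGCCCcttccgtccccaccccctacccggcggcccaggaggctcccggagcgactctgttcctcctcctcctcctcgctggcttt
Fgf21: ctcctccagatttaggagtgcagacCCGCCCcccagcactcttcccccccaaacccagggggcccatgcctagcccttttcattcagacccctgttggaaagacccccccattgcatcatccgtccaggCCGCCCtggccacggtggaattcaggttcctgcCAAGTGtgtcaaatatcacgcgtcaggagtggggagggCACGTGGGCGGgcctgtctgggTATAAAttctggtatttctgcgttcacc
The Pdgfa window held 2 GC boxes and none of the other motifs. The Fgf21 window held 3 GC boxes, 2 E-boxes and 1 TATA box, and the second E-box, CACGTG, shares its last base with a GC box. Among 32851 windows of the same length, 32.7% held the GC box, 66.2% the E-box, 12.4% the TATA box and 4.7% the EGR motif. These matches describe the letters and are no evidence of binding.

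Fgfr1, the receptor through which FGF2 signals in myoblasts, was the most even of the receptors. Probe set 1424050_s_at read 197, 200 and 180 units in control and 179, 192 and 159 in knockdown. Probe set 1425911_a_at read 109, 107 and 91.8 in control and 109, 103 and 104 in knockdown. The groups overlapped in both, with log2 fold changes of -0.09 (SE 0.08, interval -0.27 to 0.09) and 0.05 (SE 0.07, interval -0.12 to 0.22). The third probe set, 1436551_at, read between 9.13 and 19.1 units and stood at -0.13 (SE 0.13). The 3 probe sets stood, without control replicate 2, at -0.08 (SE 0.09), 0.06 (SE 0.09) and -0.02 (SE 0.12).

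Fgfr4, a receptor known from muscle progenitors and regenerating fibres, was on the lower side on all 3 probe sets that reached 16 units. Probe set 1418596_at read 69.9, 37.7 and 49.1 units in control and 32.9, 37.8 and 41.8 in knockdown. Control replicate 1 was highest and control replicate 2 lay inside the knockdown range. The log2 fold change came to -0.31 (SE 0.19, interval -0.76 to 0.14, adjusted p = 1), and -0.49 (SE 0.15, adjusted p = 0.29) without control replicate 2. It was -0.13 without control replicate 1. Probe sets 1427846_x_at, whose suffix marks probes that may bind other transcripts, and 1427776_a_at stood at -0.14 (SE 0.20) and -0.11 (SE 0.09), and without control replicate 2 at -0.29 (SE 0.19) and -0.17 (SE 0.10). A further pair of Fgfr4 probe sets stayed under 16 units, at 0.90 to 3.43 and 5.68 to 10.7.

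Fgfr2, whose splice forms bind FGF7 or FGF2, was highest on both arrays numbered 3. Probe set 1420847_a_at read 52.6, 50.9 and 117 units in control and 27.3, 68.4 and 124 in knockdown. Knockdown replicate 1 was lowest, control replicates 1 and 2 were close to each other, and the groups overlapped. The log2 fold change came to -0.06 (SE 0.50, interval -1.24 to 1.13), which leaves a more than 2-fold change in either direction inside the interval, and to -0.26 (SE 0.55) without control replicate 2. The SD was 0.62 log2 units in control and 0.91 in knockdown. The other Fgfr2 probe sets, 1433489_s_at and 1443211_at, stayed under 16 units, between 1.84 and 9.38.

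The differences can also be read within replicate numbers, which pair the arrays by the correlations given under the processing. That pairing is weak for number 1. By distance, knockdown replicate 1 lay nearer to control replicate 3 (0.278) than to control replicate 1 (0.309). For Pdgfb 1450414_at the knockdown array exceeded its control by 2.32 log2 units in number 1 and 0.95 in number 3, and differed by -0.07 in number 2. For Pdgfrb 1436970_a_at the differences were 1.09, 0.00 and 0.52 in numbers 1, 2 and 3. For Fgf21 they were -1.57, -0.04 and -1.003. Number 2 therefore showed almost no difference in any of these genes, and numbers 1 and 3 had the same sign. With the number as a block and all 6 arrays, 0 of 24 member probe sets were called, against 0%, and 7 of 24 had an unadjusted p under 0.05, against 7.84% of all probe sets. These 7 were both probe sets of Pdgfa, Pdgfb and Pdgfrb and that of Fgf21, each with an adjusted p of 0.63. As the pairing was taken from these data, the p-values of this fit are optimistic.

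**Figure D3:**
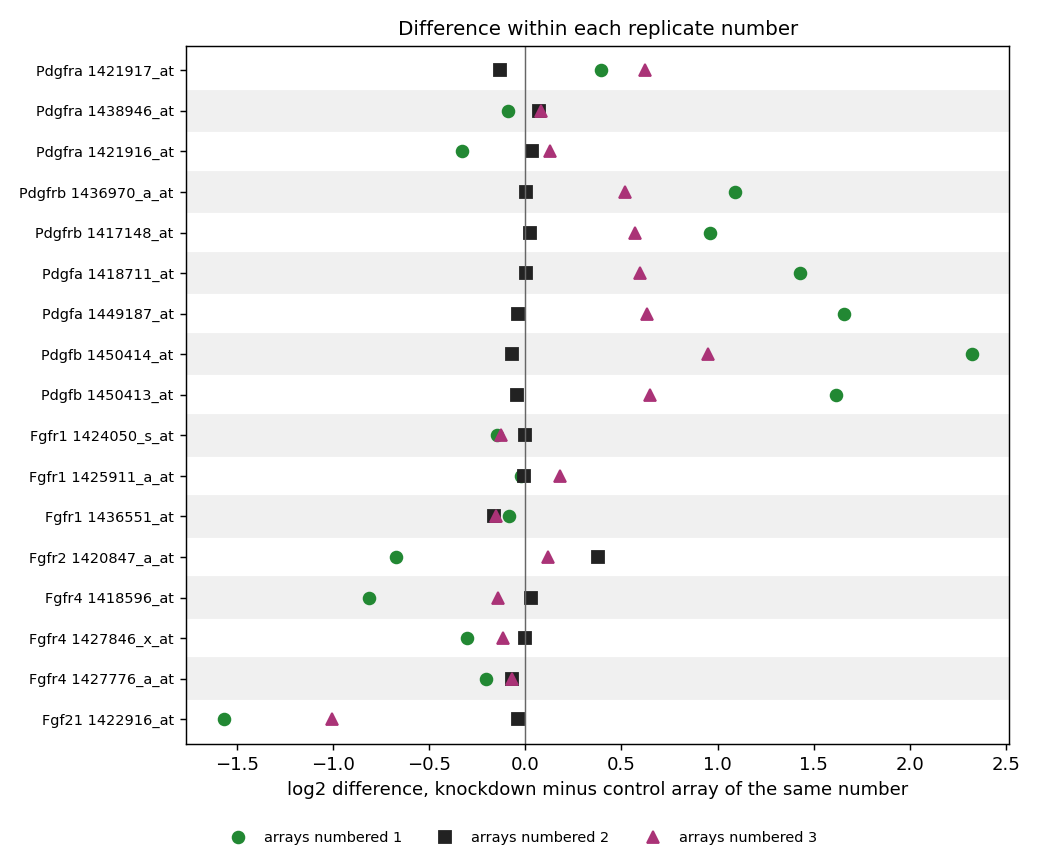
Log2 difference of the knockdown minus the control array with the same replicate number, for the 17 member probe sets (green circles, number 1; black squares, number 2; purple triangles, number 3). The black squares lie within 0.16 of 0 except for Fgfr2 at 0.38, while Pdgfa, Pdgfb and Pdgfrb have their green and purple points to the right and Fgf21 has them to the left.

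The genes whose pattern over the 6 arrays was most like that of a member were ranked by Pearson r, with no test. They were taken from 19522 probe sets of other genes at or above the median level. Pearson r takes no account of the size of a difference. With 6 arrays high values are common, and 264 candidates exceeded 0.95 for Pdgfb and 372 for Pdgfrb. Pdgfb was most like Fam20c, Syt12 and Prag1 (r from 0.9965 to 0.9991). Pdgfrb was most like Dio2, Chka and Mef2c (r from 0.9978 to 0.9981), and Pdgfa like C1galt1, Cdc42bpa and Pxn (r from 0.9871 to 0.9912). Fgfr2 was most like Ptprj, Lig3 and Ccdc180 (r from 0.9969 to 0.9979). Ptprj, a receptor phosphatase, read 50.9, 50.01 and 123 units in control and 23.9, 62.1 and 136 in knockdown, which is the same order of arrays. Pdgfra 1421917_at was most like Slc2a3, Ndn and Fam114a1 (r from 0.9964 to 0.9981), and Fgf21 like Gpsm2, Eif4e and Ndufaf3 (r from 0.9929 to 0.9948). The sizes could differ widely. Chka read 99.2 to 118 units over the 6 arrays, against 326 to 732 for Pdgfrb 1436970_a_at. Eif4e read 331 to 382 units, against 29.2 to 206 for Fgf21.

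In the other genes of the pathway, 0 of 326 probe sets passed with all 6 arrays. In that fit 23 of the 326 had an unadjusted limma p below 0.05, beside 2.94% of all 45033 probe sets. Without control replicate 2, 4 rose and 4 fell, against 0.264% and 0.262% of all probe sets. Among the other PDGF genes, Pdgfrl, a secreted protein resembling the receptor's ligand-binding part, read 48.9, 137 and 45.7 units in control and 137, 141 and 141 in knockdown. It rose by 1.29 log2 units without control replicate 2 (SE 0.09, adjusted p = 0.011 in limma), and stood at 0.89 (SE 0.32) with all 6 arrays. The remaining 5 probe sets, of Pdgfc and Pdgfd, were not called in either fit. The brightest Pdgfd probe set stood at -0.98 (SE 0.15, limma adjusted p = 0.069) without control replicate 2. The Pdgfc probe sets stood at -0.45 (SE 0.17) and -0.40 (SE 0.20) with all 6 arrays. Without control replicate 2 they stood at -0.45 (SE 0.20) and -0.59 (SE 0.16). Over the 6 probe sets of these other PDGF genes, the median log2 fold change was -0.38 with all 6 arrays. Among 21 other FGF ligands and receptors, 7 reached 16 units and 0 of 41 probe sets were called. Of these, Fgf9 and Fgf4 had the smallest p, with log2 fold changes of 0.47 (SE 0.12) and -0.43 (SE 0.18) without control replicate 2. Fgf9 reached 16 units only on control replicate 2, at 16.4. On the arrays of that fit it read 2.74 and 2.29 units in control and 7.90, 13.3 and 8.30 in knockdown, near the floor.

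Of 62 probe sets of co-receptors and ligand-binding proteins, 2 rose and 2 fell without control replicate 2, those of Nrp1 and Sdc3 in turn. Sdc3, a heparan sulphate proteoglycan of muscle progenitors, read 355, 84.9 and 256 units in control and 72.5, 76.7 and 84.1 in knockdown, and fell by 1.75 (SE 0.14, adjusted p = 0.013), while 1 of its 3 probe sets stood at 0.11. Nrp1, a co-receptor that also binds PDGFs, read 94.2, 157 and 95.4 units in control and 185, 158 and 150 in knockdown, and rose by 0.69 (SE 0.09, adjusted p = 0.046). Of 100 probe sets of adaptors and kinases, 1 rose and 1 fell without control replicate 2. Pik3r1, the regulatory subunit of PI3 kinase, rose by 0.93 (SE 0.09, adjusted p = 0.021), and Src, a kinase recruited to activated PDGF receptors, fell by 1.13 (SE 0.13, adjusted p = 0.032), with its second probe set at -0.34 (adjusted p = 0.54). With all 6 arrays these 4 stood at -1.18, 0.50, 0.60 and -0.81, each with an adjusted p of 1.

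Of 64 probe sets of feedback inhibitors, 0 rose and 1 fell without control replicate 2. It belongs to Rgs2, a regulator of G proteins, and read 55.0, 23.5 and 52.7 units in control and 12.1, 20.1 and 14.6 in knockdown. The probe set stood at -0.89 (SE 0.25) with all 6 arrays, and it fell by 1.18 without control replicate 2 (SE 0.12, adjusted p = 0.028). With all 6 arrays its groups did not overlap, as in 3 of the 64 with knockdown below, against 4.06% of all probe sets. The groups of the named Nrp1, Src and Egr1 probe sets did not overlap either. They were among 2 of 62 above (co-receptors), 3 of 100 below (adaptors and kinases) and 3 of 53 above (immediate early and ETS genes). Over all probe sets the knockdown lay above in 3.18% and below in 4.06%. Of the other Rgs2 probe sets, which were not called, 2 stood at -1.28 and -1.21 and 1 at 0.09. None of 53 probe sets of immediate early and ETS genes was called in either fit. Those with the smallest p were of Egr2 and Egr1, zinc finger factors induced within minutes of growth factor receptor activation. Egr2 1427682_a_at read 10.1, 102 and 10.3 units in control and 180, 96.3 and 57.8 in knockdown, with fold changes of 1.47 (SE 0.62) and, without control replicate 2, 2.17 (SE 0.34, adjusted p = 0.070). Egr1 read 483, 762 and 337 units in control and 1145, 780 and 711 in knockdown, with fold changes of 0.79 (SE 0.27) and 1.07 (SE 0.18, adjusted p = 0.088). The order of arrays for Egr2 was that of Pdgfb, with control replicates 1 and 3 lowest and knockdown replicate 1 highest.

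**Figure D4:**
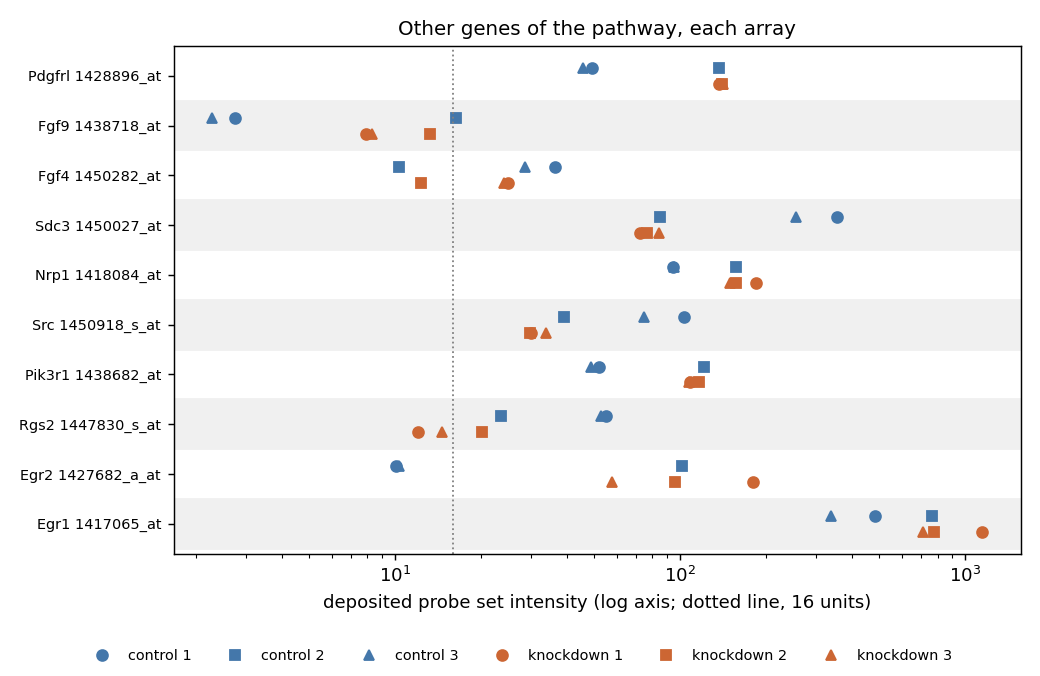
Deposited intensity of the named probe sets of other pathway genes on a log axis, with 1 point per array (blue, control; orange, knockdown; circle, square and triangle for replicates 1, 2 and 3). The probe sets were chosen by their calls or p without control replicate 2. The position of its blue square, for example Pdgfrl at 137 against 48.9 and 45.7, is therefore no separate result. In 72.8% of all measured probe sets that array was closer to the knockdown average than to that of control replicates 1 and 3. The knockdown average includes knockdown replicate 2, the array most like control replicate 2, so part of this nearness is built in.

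Since Pdgfra and Pdgfrb are used as markers of mesenchymal cells, the levels of other cell type markers are given beside them. Of 8 fibroblast and mesenchymal markers with a probe set, 4 reached 16 units, and Thy1, Lum, Dpt and Tcf21 did not. Their summed intensity ranged from 3663 to 3883 in control and from 3287 to 3872 in knockdown. Of 8 smooth muscle and pericyte markers 5 reached 16 units, and Myh11, Kcnj8 and Abcc9 did not, with sums of 4130 to 4253 in control and 4382 to 4946 in knockdown. None of these markers was called with all 6 arrays (limma). When control replicate 2 was left out, 2 of 13 fibroblast probe sets rose and 1 fell. Of 18 smooth muscle and pericyte probe sets, 0 rose and 1 fell. Over all probe sets 0.264% rose and 0.262% fell in that fit, whose p-values are optimistic. The fibroblast calls were both probe sets of the collagen gene Col1a1 and 1 of the proteoglycan Dcn. Col1a1 1423669_at read 99.9, 849 and 90.8 units in control and 1054, 844 and 487 in knockdown, at 1.83 (SE 0.79) with all 6 arrays and 2.80 (SE 0.25, adjusted p = 0.019) without control replicate 2. Dcn 1449368_at went the other way, with 176, 17.8 and 178 units in control and 7.23, 13.7 and 19.6 in knockdown, at -1.90 (SE 0.67) and -2.74 (SE 0.19, adjusted p = 0.011). The pericyte call was Rgs5 1417466_at, which read 30.0, 0.91 and 27.4 units in control and 0.91 to 2.61 in knockdown. It stood at -0.85 (SE 0.37) with all 6 arrays and -1.33 (SE 0.09, limma adjusted p = 0.011) without control replicate 2. The other Rgs5 probe sets were not called in either fit. Cspg4, a pericyte proteoglycan named after its values were seen, read 52.6, 115 and 38.9 units in control and 193, 127 and 78.8 in knockdown (1423341_at), at 0.85 (SE 0.36) and 1.196 (SE 0.28, adjusted p = 0.18), and was not called. Of the adipocyte, endothelial and immune markers, 1 of 4, 1 of 5 and 1 of 5 reached 16 units. In these bulk samples fewer cells of a type and less RNA per cell cannot be told apart, and the part of any other cell type in the results was not tested.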

How the data were processed

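Biotin-labelled cRNA from 8 ug of total RNA per sample was hybridised to Affymetrix mouse arrays, per the labels' protocols. The deposited values are linear probe set intensities. The authors used GCOS and PLIER, per the submitters' processing notes, with no version given. How arrays were scaled to each other is not stated there. Of 45101 probe sets, 64 controls and 4 of Gngt1, whose cell in control replicate 2 held the gene's Entrez number, were left out.

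Intensities were quantile-normalized, taken as log2(intensity + 16), and fitted over 45033 probe sets with limma 3.58.1 in R 4.3.3 (lmFit, eBayes, two-sided, Benjamini-Hochberg over all probe sets, threshold 0.05). The offset makes fold changes of dim probe sets too small. Probe sets under 16 units on every array are given by their range. The script was tested on simulated data. Nothing says the samples came from separate cultures beyond the labels' term biological replicate. Members, lists and motifs were chosen with earlier results of these data known. Outside the members, the named genes are, per list, up to 3 called ones with the largest change or, where none was called, the 2 of smallest p without control replicate 2.

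Same-numbered arrays deviated together (r = 0.32, 0.60 and 0.62 over 45033 probe sets), against -0.49 to 0.05 for other pairs. The number was therefore read as a pairing, taken from the data. Deviations were taken from group means, so these r values depend on each other, and the likeness of the arrays numbered 2 bears on the rest. By distance, knockdown replicate 1 lay nearer to control replicate 3 (0.278) than to control replicate 1 (0.309), so the pairing of number 1 is weak. Alternatives were other scalings, offsets, filters, eBayes settings and array weights, a replicate block, and leaving out arrays. Fitting 1 probe set per gene without control replicate 2 was added after seeing the data.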

Additional observations from a re-analysis of the deposited data

How the results depend on the processing

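With all 6 arrays, 0 probe sets were called under the other scalings, offsets 1 and 64, the filter on dim probe sets, 1 probe set per gene, trend and robust eBayes, array weights and the replicate block, which changed no other call. Leaving out 1 array gave 0 to 237 calls over all probe sets (119 higher and 118 lower without control replicate 2), 0 to 0 among the members and 0 to 8 among the pathway lists. Leaving out both arrays numbered 2 gave 57 over all and 3 in the lists, or 721, 1 member (Fgf21) and 30 with the replicate block. Without control replicate 2 the deposited scaling gave 132 over all and 6 in the lists, and 1 probe set per gene gave 290, 1 member (Pdgfrb) and 6.

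Signs were the same under every alternative for 13 of the 17 member probe sets, all those of Pdgfa, Pdgfb, Pdgfrb, Fgfr1 and Fgf21 among them. Pdgfra 1438946_at turned to -0.0594 without control replicate 2, -0.0448 without knockdown replicate 3, -0.0046 without both arrays numbered 2 (with or without the replicate block) and -0.0662 without control replicate 2 in the deposited scaling. Over the fits that leave out 1 array it ranged from -0.0594 to 0.0756. Pdgfra 1421916_at ranged from -0.21 to 0.0421, Fgfr2 1420847_a_at from -0.50 to 0.40 and Fgfr4 1427846_x_at from -0.31 to 0.02 over the same fits. Signal limits Fgf2, Fgf7 and most Pdgfra and Fgfr4 probe sets, which read near the offset.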

Other observations

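Beyond the genes named by rule, several genes downstream of the receptors were picked after their values were seen, and none was called. Spry1, which dampens FGF and PDGF signalling to ERK, read 69.9, 133 and 61.1 units in control and 134, 130 and 88.9 in knockdown, and Dusp6, an ERK phosphatase, 140, 217 and 119 in control and 274, 220 and 139 in knockdown. Their log2 fold changes were 0.42 (SE 0.24) and 0.39 (SE 0.24) with all 6 arrays, and 0.69 (SE 0.14) and 0.60 (SE 0.21) without control replicate 2. Rasa1, a Ras GTPase-activating protein that docks on the beta PDGF receptor, had 3 probe sets at 0.70 to 0.77 with all 6 arrays and 0.94 to 1.08 without control replicate 2. Spry2, of the same family as Spry1, stood at -0.06 (SE 0.14) and -0.065 (SE 0.10) with all 6 arrays, and at -0.12 and -0.07 without control replicate 2. Etv4 and Etv5, ETS factors that FGF signalling induces in many tissues, stood between 0.04 and 0.07 with all 6 arrays on the 3 probe sets that reached 16 units, and between 0.06 and 0.32 without control replicate 2.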
